A study of Mus musculus with 4 samples.

Results

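Timd4 single-positive macrophages of the mouse thymus were read out from single-cell RNA profiles as the macrophages that carry RNA of Timd4, a receptor for the phosphatidylserine of dying cells, and none of Cx3cr1, the receptor for the chemokine CX3CL1. A cell was a member when it held at least 30 unique molecular identifiers (UMIs, single counted RNA molecules) of C1qa, C1qb and C1qc together, at least 1 of Mertk, at least 2 of Timd4 and 0 of Cx3cr1. It also held 0 of Xcr1 and at most 1 of Cd79a, which mark dendritic cells and B cells, and a sum under 10 over 6 cell cycle genes. The rule gave 575 cells, of 23549 cells that passed the filters in 3 libraries and of 29271 barcodes in the 4 libraries of the series. Per library there were 282 members of 6219 cells (MAFIA replicate 2), 186 of 7646 (Cd11cYFP replicate 1) and 107 of 9684 (Cd11cYFP replicate 2), and values given as 3 numbers keep this order throughout.

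The libraries hold thymic cells of C57BL/6 mice sorted for a fluorescent reporter. MAFIA mice carry the transgene Csf1r-EGFP-NGFR/FKBP1A/TNFRSF6, in which the promoter of the CSF1 receptor drives EGFP together with an inducible death receptor, and were 5 weeks old. Cd11cYFP mice carry Itgax-Venus, a YFP variant under the promoter of CD11c, and were 9 weeks old. The study's methods name a female MAFIA mouse and male Cd11cYFP mice, 1 mouse per library, and do not say which MAFIA library is the one described. Mouse line, sex, age and sort cannot be told apart. MAFIA replicate 1, for which the rule was not written, had a median of 3981 UMIs per barcode against 15759 to 17493 in the other libraries, and it stays outside the comparisons. Members had medians of 17499.5, 14408 and 12319 UMIs per cell, and none of their barcodes was shared between libraries, whereas 10 to 25 barcodes were shared between any 2 whole libraries.

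Macrophages of the thymus clear thymocytes that die during selection. Phosphatidylserine on a dying cell is bound directly by Timd4, or through bridging proteins by the receptor kinases Mertk and Axl, and the engulfed cargo then has to be degraded, exported or stored. In the spleen and liver, the transcription factor Spic, the iron exporter Slc40a1 (ferroportin) and the adhesion molecule Vcam1 mark macrophages that recycle the iron of red blood cells. Timd4, Slc40a1, Vcam1, Spic and Mertk served here as the markers of the cell type. Timd4 and Mertk were used by the rule, and the other markers were not.

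The promoters of Timd4 and Spic are shown because the first defines the members and the second encodes the transcription factor they share with macrophages of the splenic red pulp. Both windows run from 250 bases before to 50 bases after the RefSeq start site (GRCm38.p6): chr11:46810549-46810848 on the plus strand for Timd4 and chr10:88682974-88683273 on the minus strand for Spic, printed 5′ to 3′ along the gene. Capitals mark TGCTGA or its reverse TCAGCA, the core of the site that Maf proteins bind, a family to which the transcription factor Maf belongs.
Timd4 promoter: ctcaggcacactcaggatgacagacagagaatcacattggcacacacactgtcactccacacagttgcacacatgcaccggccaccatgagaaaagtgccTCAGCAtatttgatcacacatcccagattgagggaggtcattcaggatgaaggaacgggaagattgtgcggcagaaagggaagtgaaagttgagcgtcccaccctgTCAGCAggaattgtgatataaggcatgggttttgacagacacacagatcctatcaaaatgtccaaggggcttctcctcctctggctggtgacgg
Spic promoter: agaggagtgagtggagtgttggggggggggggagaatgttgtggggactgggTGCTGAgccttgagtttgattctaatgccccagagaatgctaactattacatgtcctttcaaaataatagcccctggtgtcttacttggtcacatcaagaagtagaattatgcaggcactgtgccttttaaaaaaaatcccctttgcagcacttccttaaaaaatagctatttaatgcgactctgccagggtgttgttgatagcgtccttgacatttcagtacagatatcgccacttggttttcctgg
The Timd4 window held 2 matches and the Spic window 1, and 19.5% of the 32851 RefSeq promoters of the same length hold at least 1. The letters GAGGAA (in 28.3% of promoters), a form of the site that factors of the Spi1 and Spic type recognise, were searched on both strands as well and were not in either window. Forms of that site without GAGGAA were not searched, so the windows may hold them. An extended Maf recognition element, which contains TGCTGA (in 0.387%), and the run GAGGAAGT, which contains GAGGAA (in 3.2%), were not found there either. A match is a run of letters and was not tested as a binding site.

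The values that chose the members were as follows. Members held a median of 8, 6 and 6 Timd4 UMIs, from 2 up to 42, 50 and 27. Their C1q sums started at 49, 52 and 70 UMIs, above the limit of 30, and no cell that met every other term had a C1q sum of 10 to 29. Members with exactly 2 Timd4 UMIs numbered 20, 18 and 9, and cells that met every other term with 1 Timd4 UMI numbered 30, 6 and 10. In CPM, the UMIs of a gene scaled to a common total of UMIs, here without further normalization, Slc40a1 stood at 552, 896 and 1468 just inside and 382, 577 and 765 just outside this limit. Cells with 1 Cx3cr1 UMI, which the rule left out, numbered 29, 14 and 22 and had 437, 924 and 1028 CPM of Slc40a1, against 602, 1171 and 1532 in all members. In all 3 libraries the cells left out for too little Timd4 had less Slc40a1 than the members next to them.

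The members took 4.53% (95% exact binomial interval 4.03 to 5.08), 2.43% (2.10 to 2.80) and 1.10% (0.906 to 1.33) of the cells that passed the filters. Of the macrophages of the gate, counted without the terms for Timd4 and Cx3cr1, they were 37.7% (34.2 to 41.3), 27.7% (24.3 to 31.2) and 15.7% (13 to 18.6). The intervals, which cover counting error only, do not overlap between any 2 libraries in either share. Both Cd11cYFP libraries lay below the MAFIA library, and they also differed from each other. Each share depends on the reporter gate of the sort, and the difference between the lines (1 library against 2) was not tested.

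The members were compared with 3 populations gated from the same libraries. Cx3cr1 SP macrophages (198, 275 and 403 cells) met the same terms with 0 Timd4 and at least 2 Cx3cr1 UMIs. DP macrophages (120, 56 and 64 cells) held at least 2 UMIs of each gene, and monocytes (228, 525 and 79 cells) held at least 3 Ly6c2 UMIs, Ccr2 and Fcgr1 but no Mertk. The UMIs of each population were added up in each library, and edgeR's quasi-likelihood test was run on these sums with a term for the library. Unless stated otherwise, levels are CPM after TMM normalization, except that levels in B cells, which were outside the fit, are CPM without it. The p-values were adjusted by the Benjamini-Hochberg method across every gene tested in that comparison, and 0.05 was the threshold. Each library is 1 mouse, and the library term takes out the level that its populations share. The p-values therefore measure how the differences between populations vary over 3 mice of 2 lines, with spread pooled over all populations of the fit.

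**Figure D1:**
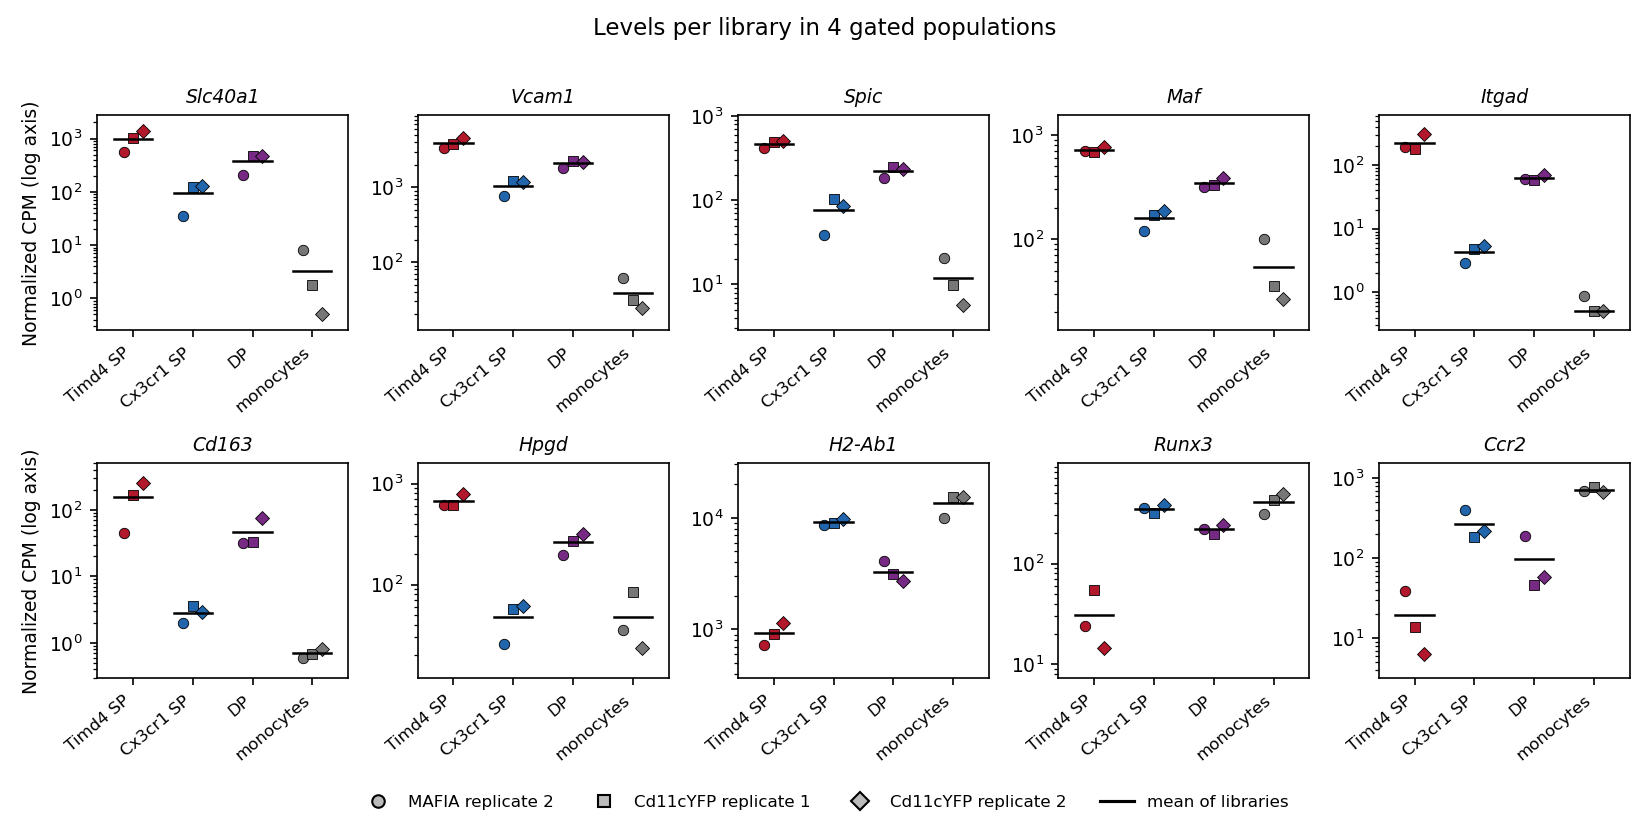
Normalized CPM per library (log axis, values under 0.5 drawn at 0.5) of 10 genes in Timd4 SP, Cx3cr1 SP, DP and monocytes; points are the 3 libraries and bars their mean. Slc40a1, Vcam1, Spic, Maf, Itgad, Cd163 and Hpgd are highest in all 3 Timd4 SP sums, while H2-Ab1, Runx3 and Ccr2 are lowest there.

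The markers that the rule did not use were high in the members. Slc40a1 reached 558, 1044 and 1366 CPM in Timd4 SP against 34.4, 122 and 127 in Cx3cr1 SP, 209, 469 and 474 in DP and 8.18, 1.79 and 0 in monocytes. The lowest member library was above the highest Cx3cr1 SP library (log2 fold change 3.45 ± 0.36 (SE), adjusted p = 4.7e-06). Vcam1, which binds integrins of passing cells, stood at 3373, 3804 and 4607 CPM against 767, 1197 and 1184 (log2 fold change 1.91 ± 0.24 (SE), adjusted p = 2.5e-05). Spic stood at 416, 489.6 and 513 CPM against 38.8, 104 and 85.5 (log2 fold change 2.67 ± 0.28 (SE), adjusted p = 5.3e-06). All 3 genes were therefore separated from Cx3cr1 SP in every library, while Slc40a1 was lower in the MAFIA members than in either set of Cd11cYFP members. B cells of the same libraries, gated on Cd79a and Ms4a1 with no Mertk, had 2.41 CPM of Slc40a1, 31.3 of Vcam1 and 2.58 of Spic. They are given as a background, in which free RNA in droplets and the cells' own RNA were not told apart. Of the gate genes, Mertk averaged 460.1 ± 86.6 CPM (SD, n = 3 libraries) in members and 155 in Cx3cr1 SP, as a description. The 3 markers that the rule did not use were thus present in the cells that carry the label, while Timd4 and Mertk were required by the rule.

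Cell by cell, the markers were spread over most members and not carried by a few. With every cell thinned to 5000 UMIs, at least 1 UMI of Slc40a1 was seen in 82.3, 92.5 and 97.2% of members, of Vcam1 in 100, 99.5 and 100% and of Spic in 81.6, 85.5 and 87.9%. The same shares in Cx3cr1 SP averaged 19.4%, 88.6% and 23.1%, and in the B cells 1.21%, 10.9% and 1.65%. Itgad was seen in 60% ± 8.73 (SD, n = 3 libraries) of members against 1.68% of Cx3cr1 SP, and Cd163 in 31.7% ± 14 against 1.32%. Gpnmb, a gene of lipid-laden macrophages, ran the other way, with 3.7% ± 2.54 of members and 32.4% of Cx3cr1 SP. Without thinning, the shares in members rose to 96.7% for Slc40a1, 96.3% for Spic and 78.5% for Itgad.

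The comparison of Timd4 SP with Cx3cr1 SP asks how far these 2 gated macrophage populations, both held to a low cycle sum, differ. Outside the gate genes, 4081 of 11566 genes passed, which is 35.3% of those tested: 1902 (16.4%) were higher and 2179 (18.8%) lower in the members. The call came with at least a 2-fold difference for 1766 genes (15.3%), and the member libraries did not overlap the Cx3cr1 SP libraries for 4628 (40%). Among genes of at least 50 CPM, the largest rises were in genes with little RNA in Cx3cr1 SP. Sema6a, a transmembrane semaphorin, stood at 55.4, 54.8 and 76.4 CPM against 0.654, 0 and 0.873 (log2 fold change 6.82 ± 0.36 (SE), adjusted p = 1.1e-08), a fold that rests on 9 UMIs in Cx3cr1 SP and so depends on the prior count. Paqr9 stood at 209, 220 and 323 CPM against 2.4, 4.72 and 6.55 (log2 fold change 5.75 ± 0.20 (SE), adjusted p = 4.4e-10). Itgad, the integrin alpha chain that pairs with Itgb2 on splenic red pulp macrophages, stood at 192, 182 and 304 CPM against 2.83, 4.72 and 5.24 (log2 fold change 5.69 ± 0.18 (SE), adjusted p = 1.7e-10). For all 3, every member library lay far above every Cx3cr1 SP library. Cd163, the receptor for haptoglobin-bound hemoglobin, was less even, with 45, 167 and 251 CPM in members and 1.96, 3.59 and 2.91 in Cx3cr1 SP (log2 fold change 5.69 ± 0.32 (SE), adjusted p = 2e-08). The complement component C6 varied likewise, at 23.7, 168 and 75.8 CPM (log2 fold change 5.43 ± 0.32 (SE), adjusted p = 3e-08). In both cases the MAFIA members were lowest and still above every Cx3cr1 SP library. The other genes of the top 10 were Mrap (5.44 ± 0.25), the fatty acid carrier Fabp4 (5.43 ± 0.34), the lipid phosphatase Plpp3 (5.38 ± 0.32), the kinase Dmpk (5.19 ± 0.19) and the phospholipid transporter Abcb4 (5.19 ± 0.24). The study's lists of differing genes from this series already hold Paqr9, Itgad, Mrap and Dmpk. They also hold genes named below, such as Hpgd, Lrp1, Gpnmb, Cst7 and Tgfbi. The direction of such genes is not independent evidence.

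The genes most reduced in the members included chemokine receptors, a cytokine and regulators of cytokine signalling. Ccr1, a receptor for CC chemokines, stood at 5.05, 2.46 and 0 CPM in members against 144, 101 and 75.7 (log2 fold change -5.13 ± 0.27 (SE), adjusted p = 1e-08). Ccr2, the receptor that brings monocytes out of the bone marrow, stood at 39.2, 13.8 and 6.31 CPM against 395, 183 and 219.8 (log2 fold change -3.72 ± 0.36 (SE), adjusted p = 2.3e-06). The members' own libraries differed several-fold in Ccr2, but none reached a Cx3cr1 SP library. Tnfsf13b, which encodes the B cell survival factor BAFF, stood at 2.27, 6.77 and 1.26 CPM against 72.1, 59.6 and 54.4 (log2 fold change -4.14 ± 0.32 (SE), adjusted p = 2.7e-07). Socs3, an inhibitor of cytokine signalling, stood at 6.8, 24.6 and 5.68 CPM against 91.9, 248 and 182 (log2 fold change -3.77 ± 0.23 (SE), adjusted p = 4e-08). Osm (oncostatin M, -3.74 ± 0.35), the adaptor Lat2 (-3.90 ± 0.22), the lysozyme gene Lyz1 (-4.90 ± 0.77), Spon1 (-3.72 ± 0.31), Rtn1 (-3.59 ± 0.19) and Kctd14 (-3.56 ± 0.35) completed the 10 genes. Lyz1 has a near-identical neighbour, Lyz2, so the split of reads between the copies is uncertain. Lyz2 averaged 3905 CPM in members and 13464 in Cx3cr1 SP. The Cx3cr1 SP cells were deeper (medians of 23773, 19224 and 16306 UMIs per cell), and with all cells thinned to 5000 UMIs 1205 genes were higher and 1384 lower. Without the library block 1281 and 1294 genes passed.

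**Figure D2:**
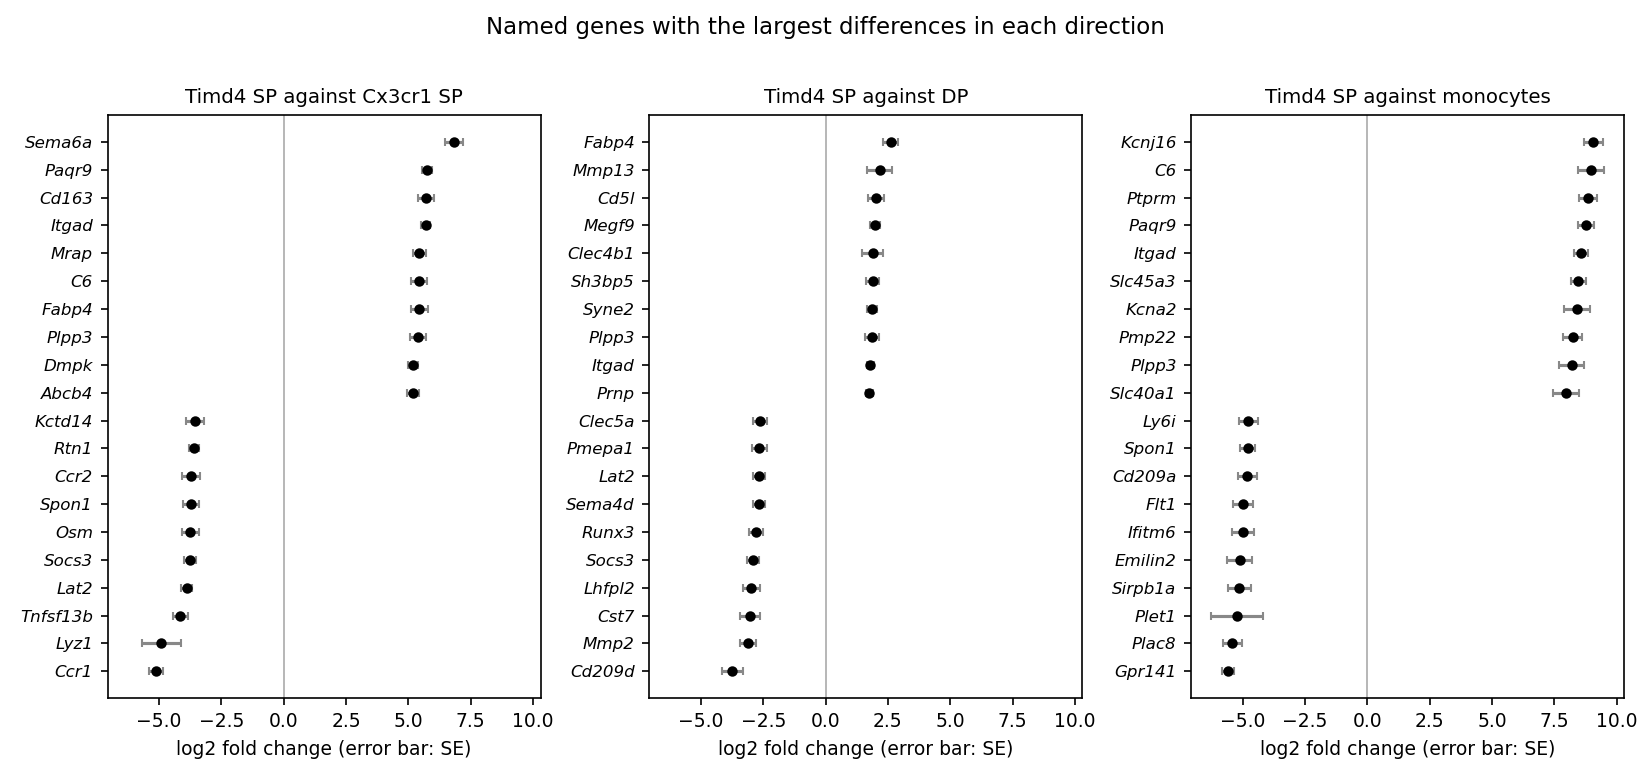
Log2 fold change (x axis, error bars are SE) of the genes with the largest differences in each direction, chosen by rule, in Timd4 SP against Cx3cr1 SP, DP and monocytes. The higher genes reach 6.82 against Cx3cr1 SP, 2.61 against DP and 9.06 against monocytes.

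Genes that mark red pulp and Kupffer macrophages, the iron-recycling cells of spleen and liver, were nearly all higher in the members. Of 21 measured genes outside the gate, 19 were higher and 1 was lower than in Cx3cr1 SP, with a median log2 fold change of 2.71, where the median of all genes tested was -0.02 and 35.3% of all genes passed. The list holds Slc40a1, Vcam1 and Spic, by which the cell type was named, so it is not independent evidence. Cd5l, a secreted scavenger protein of tissue macrophages, stood at 111, 409 and 124 CPM against 3.27, 11.3 and 6.11 (log2 fold change 4.82 ± 0.36 (SE), adjusted p = 2.1e-07). Fcna (ficolin A, 4.64 ± 0.23), Vsig4, Clec1b, Siglec1, Epor and Treml4 were also higher, with Vsig4, a complement receptor, at 3.14, 23.1 and 9.47 CPM against 0, 0 and 0. The exception was Id3, a transcription factor of Kupffer cells, which was lower. The summed level of the list was 9110, 11256 and 13165 CPM (not TMM-normalized) in members and 2150, 2632 and 2773 in Cx3cr1 SP. Hemoglobin and the other markers of erythroid cells were almost absent from the members, with 3 UMIs in MAFIA replicate 2 and 0 in both Cd11cYFP libraries, over the 7 genes of that list found in the files.

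Most iron and heme genes that passed were higher. Of 26 measured genes, 16 were higher and 4 lower in the members (median log2 fold change 0.71). Higher genes span the route of heme iron: uptake through Cd163, heme transport (Slc48a1), cleavage by Hmox1 and the biliverdin reductases Blvra and Blvrb, lysosomal iron export by Slc11a1 (2.49 ± 0.26) and release by Slc40a1. The transferrin receptor Tfrc stood at 377, 53.2 and 77.7 CPM against 13.9, 7.93 and 14.3 (log2 fold change 3.44 ± 0.45 (SE), adjusted p = 3.9e-05), with the MAFIA members far above the others. Both ferritin chains, Fth1 and Ftl1, which store iron, were lower. Fth1 averaged 7240 ± 1396 CPM (SD, n = 3 libraries) in members and 16511 ± 2229 in Cx3cr1 SP. Cp (ceruloplasmin) and Flvcr1 (a heme exporter) were the other lower members.

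Scavenger and lectin receptors were split but leaned upward, with 13 of 21 higher and 5 lower (median 1.45). Cd209f stood at 21.4, 11.1 and 76.4 CPM against 0.218, 0.189 and 1.6 (log2 fold change 5.53 ± 0.44 (SE), adjusted p = 4e-07), and the mannose receptor Mrc1, Cd36, Cd68, Clec4n and Clec12a were also higher. Msr1, Stab1, Clec7a (dectin-1), Cd93 and Lgals3 (galectin-3) were lower. Among 24 receptors and bridging molecules of dead-cell uptake, Timd4 and Mertk being set aside, 7 were higher and 10 lower (median -0.23). Axl, the TAM kinase beside Mertk, stood at 1130.4, 1071 and 1262 CPM against 633, 512 and 632 (log2 fold change 0.97 ± 0.11 (SE), adjusted p = 7.1e-06). Lrp1, a large endocytic receptor that can bind dying cells, stood at 422, 500.4 and 573 CPM against 27.9, 69.3 and 77 (log2 fold change 3.13 ± 0.27 (SE), adjusted p = 9e-07). Stab2 was higher (2.17 ± 0.20) while its relative Stab1 was lower (-2.32 ± 0.18). The bridging proteins Gas6 and Mfge8 and the receptors Havcr2 (Tim-3) and Trem2 were lower in the members.

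Of 38 transcription factors of myeloid cells, 10 were higher and 13 lower, and without the library block 7 and 7. Maf, which with its relatives maintains tissue macrophages, stood at 704, 687 and 770.4 CPM against 119, 172 and 186 (log2 fold change 2.16 ± 0.31 (SE), adjusted p = 8e-05). Nr1h3, the sterol sensor LXR alpha, stood at 383, 267 and 244 CPM against 140.1, 132 and 117 (log2 fold change 1.17 ± 0.15 (SE), adjusted p = 2.3e-05). Pparg, a lipid-sensing receptor, was higher by 3.33 ± 0.24 and Tcf7l2, a factor of the Wnt pathway, by 2.61 ± 0.24 on the log2 scale. The study names Spic, Maf and Nr1h3 for these cells and Runx3 for Cx3cr1+ macrophages, and it lists Tcf7l2 for these cells. The direction of these genes is therefore not independent. Runx3, a factor of lymphoid and dendritic cells and of Langerhans cells, stood at 24.2, 54.5 and 14.5 CPM against 359, 315 and 381 (log2 fold change -3.46 ± 0.29 (SE), adjusted p = 7.1e-07). Spi1, Irf4, Mef2c, Mef2a, Mitf, Cebpa and Batf3 were lower as well.

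Transporters and lipid genes gave a further block. Of 20 solute carriers, a list that includes those the study named from these cells, 13 were higher and 5 lower (median 1.12). Slco2b1, an organic anion carrier, stood at 172, 191 and 205 CPM against 4.14, 8.49 and 10.5 (log2 fold change 4.60 ± 0.27 (SE), adjusted p = 2.4e-08). Slc1a3, a glutamate carrier, stood at 426, 407 and 379 CPM against 60.1, 83 and 68.1 (log2 fold change 2.52 ± 0.24 (SE), adjusted p = 2.2e-06). Slc45a3 (5.16 ± 0.19), Slc16a9 (3.26 ± 0.19) and Slc12a2 (3.25 ± 0.17) were the other large ones, and Slc7a11, Slc7a5, Slc38a2, Slc29a3 and Slc36a2 were lower. Of 29 lipid and sterol genes, 13 were higher and 3 lower (median 0.19), and without the library block 8 and 1. They included the sterol exporters Abca1 and Abcg1, the lysosomal lipase Lipa and the cholesterol carrier Npc1. Apoc1 stood at 1469.8, 3321 and 2045 CPM against 502, 143 and 226 (log2 fold change 3.06 ± 0.42 (SE), adjusted p = 5.6e-05). Fabp5, Fabp3 and Npc2 were the 3 lower ones, so the related carriers Fabp4 and Fabp5 differed in opposite directions. In prostaglandin metabolism 7 of 18 genes were higher and 6 lower. Hpgd, the enzyme that inactivates prostaglandins, stood at 622, 613 and 796 CPM against 25.7, 57.9 and 61.3 (log2 fold change 3.88 ± 0.30 (SE), adjusted p = 2.8e-07). Ptgs2 and the leukotriene genes Alox5ap, Ltc4s and Cysltr1 were lower.

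MHC class II presentation was largely lower in the members. Of 14 MHC class II genes, 11 were lower and 2 higher (median -1.55), the 2 being the costimulatory molecules Cd86 and Cd80. H2-Ab1 stood at 727, 902 and 1149 CPM in members against 8549, 9028 and 9773 in Cx3cr1 SP (log2 fold change -3.31 ± 0.20 (SE), adjusted p = 4e-08). Cd74, the chaperone of class II, stood at 1501, 2054 and 2442 CPM against 15645, 15988 and 20052 (log2 fold change -3.12 ± 0.17 (SE), adjusted p = 1.7e-08). Ciita, the master regulator of class II genes, was lower too. For class I and peptide loading, 15 of 17 genes were lower and none higher (median -0.68), with B2m at 3412, 5297 and 3138 CPM against 6201, 8515 and 7143 (log2 fold change -0.90 ± 0.11 (SE), adjusted p = 2.8e-05). Without the library block 6 of these 17 were lower.

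Genes of microglia and lipid-associated macrophages were mostly lower, 13 of 22 against 5 higher (median -0.84). Gpnmb stood at 22.7, 60.9 and 1.26 CPM in members against 232, 237 and 152 (log2 fold change -3.01 ± 0.35 (SE), adjusted p = 1.1e-05), and Cst7, an inhibitor of cathepsins, at 15, 37.5 and 1.26 against 232, 137 and 148 (log2 fold change -3.22 ± 0.39 (SE), adjusted p = 1.7e-05). Both were almost absent from Cd11cYFP replicate 2 members and present in the other libraries. The members were higher in P2ry12 and P2ry13, nucleotide receptors of microglia. Of 23 chemokines and receptors outside the gate, 11 were lower and 3 higher (Ccl6, Ccl8 and the eotaxin receptor Ccr3), and without the library block 7 and 2. Of 18 genes of TGF-beta signalling, 9 were lower and 3 higher, and Tgfbi stood at 112, 162 and 57.5 CPM against 1188, 1359 and 1116 (log2 fold change -3.50 ± 0.24 (SE), adjusted p = 1.1e-07). Kitl, the ligand of the receptor Kit on early thymocytes, stood at 19, 23.4 and 43.6 CPM against 0, 1.89 and 1.6 (log2 fold change 4.51 ± 0.45 (SE), adjusted p = 3.4e-06), while 11 of 24 growth factors and cytokines were higher and 9 lower. Of 7 Fc receptor genes, 4 were higher, among them the IgG carrier Fcgrt (2.63 ± 0.20) and Fcgr4 (2.09 ± 0.23), whereas the inhibitory Fcgr2b was lower (-1.88 ± 0.18). DNA replication genes were lower in 10 of 24 and higher in none, in cells gated for a low cycle sum in both populations. Without Cd11cYFP replicate 1 the replication count was 6 lower, and with thinned cells 5 lower and 1 higher.

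**Figure D3:**
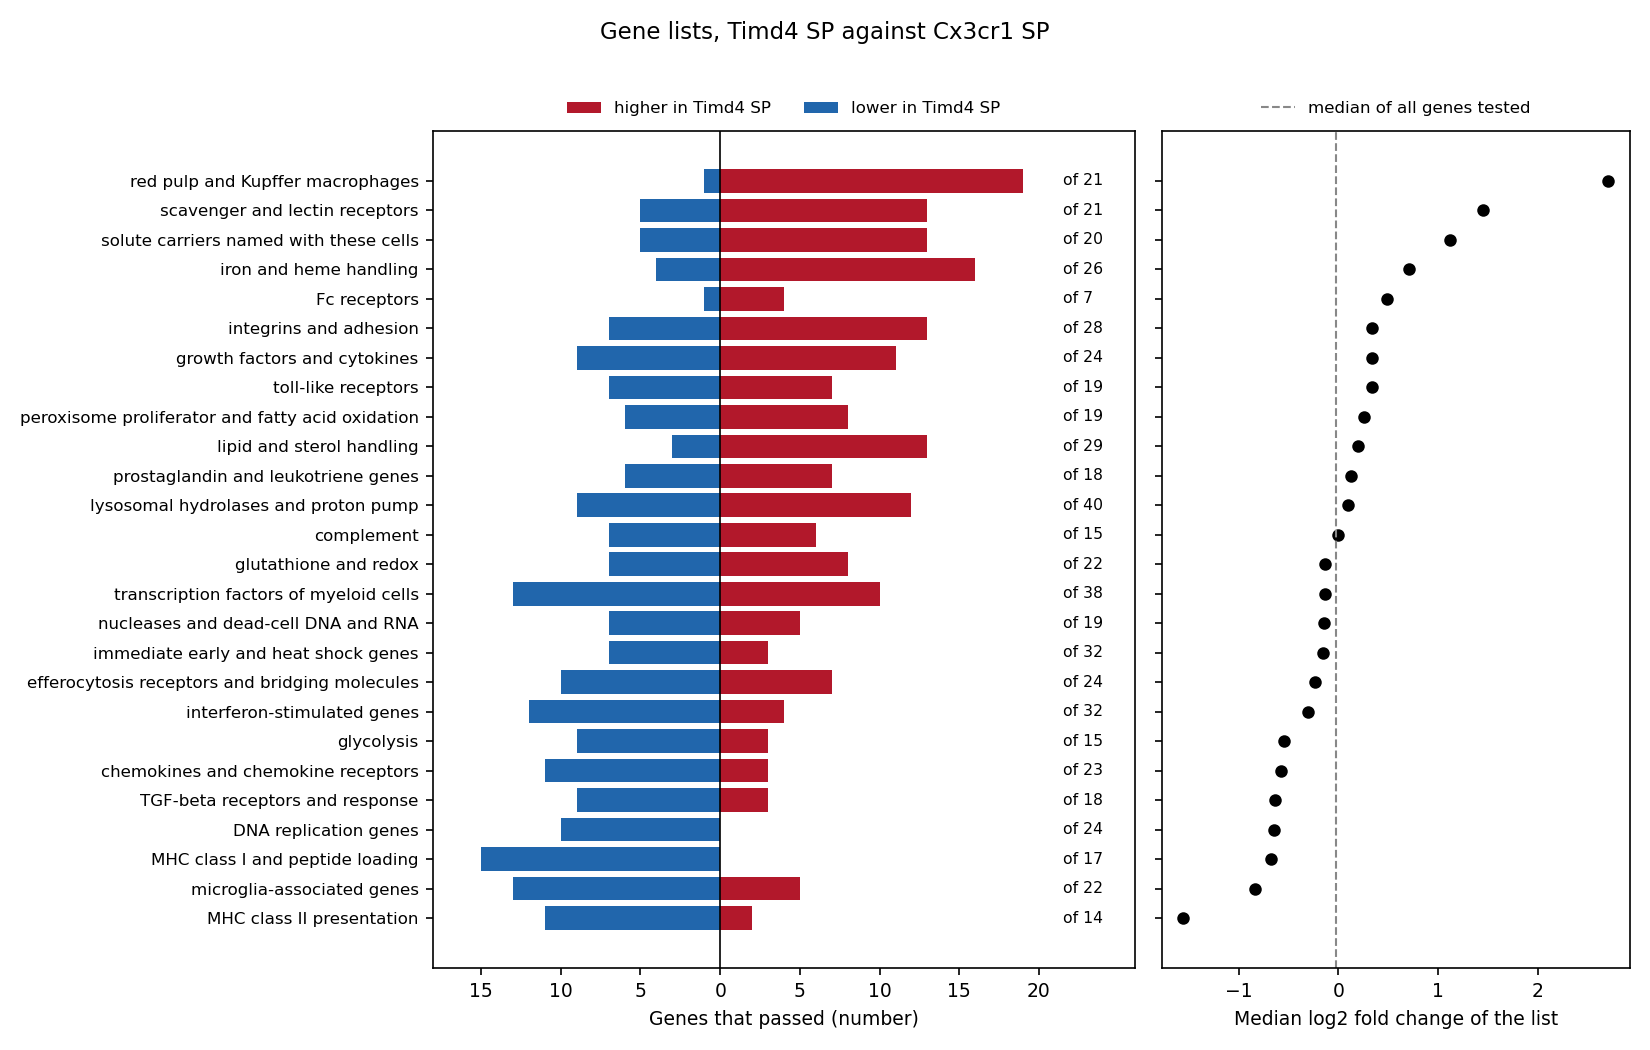
For each gene list, the number of measured genes outside the gate that passed as higher (red, to the right) or lower (blue, to the left) in Timd4 SP than in Cx3cr1 SP, of how many tested (left), and the median log2 fold change of the list (right, dashed line is the median of all genes). Red pulp and Kupffer genes are at the top with 19 of 21 higher, and MHC class II genes at the bottom with 11 of 14 lower; the lists of markers of other cell types are not drawn.

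Other lists were mostly divided between higher and lower genes, where 35.3% of all genes passed in either direction. Glycolysis (median -0.54) and interferon-stimulated genes (median -0.30) leaned lower. Lysosomal hydrolases and the proton pump gave 12 higher and 9 lower of 40, with Ctsb and Lgmn higher and Ctss (-1.25 ± 0.12), Ctsz (-1.05 ± 0.12) and Cd63 (-1.23 ± 0.17) lower. Complement gave 6 higher and 7 lower of 15, and Cfb (-2.99 ± 0.29) and C3 were among the lower genes. Nucleases gave 5 higher and 7 lower of 19, with Dnase2a, the lysosomal nuclease for engulfed DNA, higher and Dnase1l3 lower. Integrins and adhesion genes gave 13 higher and 7 lower of 28, with Pecam1 (2.74 ± 0.30) and the tetraspanin Cd81 (2.15 ± 0.15) higher and Itgal (-2.76 ± 0.33) lower. Toll-like receptors gave 7 higher, led by Tlr4 (1.95 ± 0.13), and 7 lower of 19. Interferon-stimulated genes gave 4 higher and 12 lower of 32, and without the library block 0 higher and 3 lower. Glycolysis gave 3 higher and 9 lower of 15, fatty acid oxidation 8 higher and 6 lower of 19, and glutathione and redox genes 8 higher and 7 lower of 22. Immediate early and heat shock genes gave 3 higher and 7 lower of 32, and 0 higher and 1 lower without the block. Without the block, nucleases gave 3 higher and 4 lower, toll-like receptors 5 and 3, glycolysis 0 and 4, and fatty acid oxidation 5 and 3. With 1 library left out, the immediate early and heat shock count was 6 higher and 11 lower (without MAFIA replicate 2), 0 and 4 (without Cd11cYFP replicate 1) or 1 and 4 (without Cd11cYFP replicate 2). Without Cd11cYFP replicate 1 glycolysis gave 2 higher and 4 lower and fatty acid oxidation 4 and 2, and without MAFIA replicate 2 fatty acid oxidation gave 5 and 4. With thinned cells toll-like receptors gave 5 higher and 4 lower and fatty acid oxidation 5 and 3, and without the low-count filter immediate early and heat shock genes gave 5 and 13.

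Compared with DP macrophages, which carry both receptors, the members differed in fewer genes. Outside the gate 1518 of 11566 passed (13.1%), with 621 (5.37%) higher and 897 (7.76%) lower in the members. A difference of at least 2-fold was part of 679 of these calls (5.87% of genes), and the libraries of the groups did not overlap for 2589 genes (22.4%). Fabp4 showed the largest rise, with 108, 116 and 155 CPM in members against 30.8, 17.2 and 5.39 in DP (log2 fold change 2.61 ± 0.31 (SE), adjusted p = 0.0001). Itgad stood at 62.7 CPM in DP on average against 226 ± 67.6 in members (log2 fold change 1.80 ± 0.14 (SE), adjusted p = 1e-05), and the prion protein gene Prnp followed (1.76 ± 0.13). Cd209d, a C-type lectin, was lowest relative to DP, with 5.75, 0.616 and 6.31 CPM against 87.4, 28.8 and 38.6 (log2 fold change -3.73 ± 0.43 (SE), adjusted p = 9e-05). Mmp2, a matrix protease, stood at 22, 45.5 and 18.3 CPM against 235, 232 and 302 (log2 fold change -3.12 ± 0.33 (SE), adjusted p = 4.9e-05), and Runx3 at 219 CPM in DP on average (log2 fold change -2.79 ± 0.30 (SE), adjusted p = 5.2e-05). Of the 14 MHC class II genes, 10 were lower and 2 higher than in DP, and of the 21 red pulp and Kupffer genes 15 were higher and 0 lower. Scavenger and lectin receptors gave 11 higher and 1 lower of 21. Iron and heme genes gave 7 and 2 of 26 and solute carriers 7 and 1 of 20. Lipid and sterol genes gave 6 and 1 of 29, and DNA replication genes 0 and 0 of 24. Slc1a3 and Slc7a7, which the study names for Timd4+ macrophages, did not pass against DP. Nr1h3 passed as higher here and in 7 of 13 alternatives.

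Of the markers, Slc40a1 stood at 209, 469 and 474 CPM in DP, below the members in each library (log2 fold change 1.36 ± 0.33 (SE), adjusted p = 0.015). Vcam1 (log2 fold change 0.90 ± 0.23 (SE), adjusted p = 0.02), Spic (log2 fold change 1.09 ± 0.27 (SE), adjusted p = 0.016) and Maf (log2 fold change 1.07 ± 0.30 (SE), adjusted p = 0.032) passed with smaller differences. Without Cd11cYFP replicate 1 the adjusted p of Slc40a1 was 0.06 and without Cd11cYFP replicate 2 it was 0.1. It was 0.25 without the library block and 0.449 with DESeq2, with a range of 2.9e-24 to 0.449 over the 13 alternatives and log2 fold changes of 1.28 to 1.47. Vcam1, Spic and Maf lost their call without either Cd11cYFP library and without the block too, with adjusted p-values of up to 0.121 for Vcam1, 0.153 for Spic and 0.156 for Maf over all alternatives. DP cells were few, and the count of genes called against DP was 930 without MAFIA replicate 2, 825 without Cd11cYFP replicate 1 and 756 without Cd11cYFP replicate 2. They were also deeper than the members in each library, with medians of 25923.5, 19769 and 15184.5 UMIs per cell. With thinned cells 768 genes were called against DP, and the part of mixed droplets in DP was not tested.

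Compared with monocytes, 6479 of 11562 genes passed (56%), 3235 higher (28%) and 3244 lower (28.1%) in the members. At least 2-fold were 3341 of these (28.9% of genes), and the libraries did not overlap for 6044 (52.3%). The potassium channel gene Kcnj16 showed the largest rise, at 66.2, 119 and 134 CPM in members against 0, 0.138 and 0.811 (log2 fold change 9.06 ± 0.37 (SE), adjusted p = 3.6e-10). C6, Ptprm, Paqr9, Itgad, Slc45a3, Kcna2, Pmp22, Plpp3 and Slc40a1 followed, with log2 fold changes of 7.97 to 8.98. Some monocyte libraries hold no or 1 to 3 UMIs of these genes, so the fitted fold changes depend on the prior count. On the other side Gpr141 stood at 6.97, 3.08 and 1.26 CPM in members against 240.4, 215 and 146 (log2 fold change -5.58 ± 0.25 (SE), adjusted p = 6.2e-10), and Plac8 at 197, 27.4 and 20.2 against 4586, 1665 and 1761 (log2 fold change -5.42 ± 0.38 (SE), adjusted p = 3.5e-08). Of 40 lysosomal genes, 30 were higher and 3 lower in the members than in monocytes. Of 14 class II genes 12 were lower in the members than in monocytes, and of 26 iron and heme genes 18 were higher and 1 lower. All 3 comparisons use the same member libraries, so they are not independent of each other.

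Within the members, Timd4 varied weakly with some of the other markers. Cells were split in each library into tertiles by the share of their UMIs that is Timd4, and each tertile was summed (CPM, not TMM-normalized). Slc40a1 stood at 560.1, 606 and 645 CPM from the lowest to the highest tertile in MAFIA replicate 2, at 891, 1261 and 1390.5 in Cd11cYFP replicate 1 and at 1243, 1619 and 1782 in Cd11cYFP replicate 2. It was higher in the top than in the bottom tertile in all 3 libraries, and so were Vcam1, Spic and Axl. Vcam1 went from 3064 to 4252, from 3498 to 4916 and from 4365 to 5845 CPM. The summed class II genes H2-Aa, H2-Ab1, H2-Eb1 and Cd74 went the other way, with 6816, 2061 and 1621 CPM in MAFIA replicate 2, 8165, 5173 and 2757 in Cd11cYFP replicate 1 and 12354, 3713 and 3078 in Cd11cYFP replicate 2. Each sum pools its cells, so a few members with much class II RNA can weigh on it, and their part was not tested. Cd163 had no common direction, with 65.3, 40.9 and 37 CPM in MAFIA replicate 2, 178, 186 and 199 in Cd11cYFP replicate 1 and 248, 392 and 215 in Cd11cYFP replicate 2. The tertiles had similar depths, with medians of 16200 to 18666, 13724 to 16304 and 11184 to 13004 UMIs per cell. Since Timd4 is part of the rule, these are descriptions without a test.

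**Figure D4:**
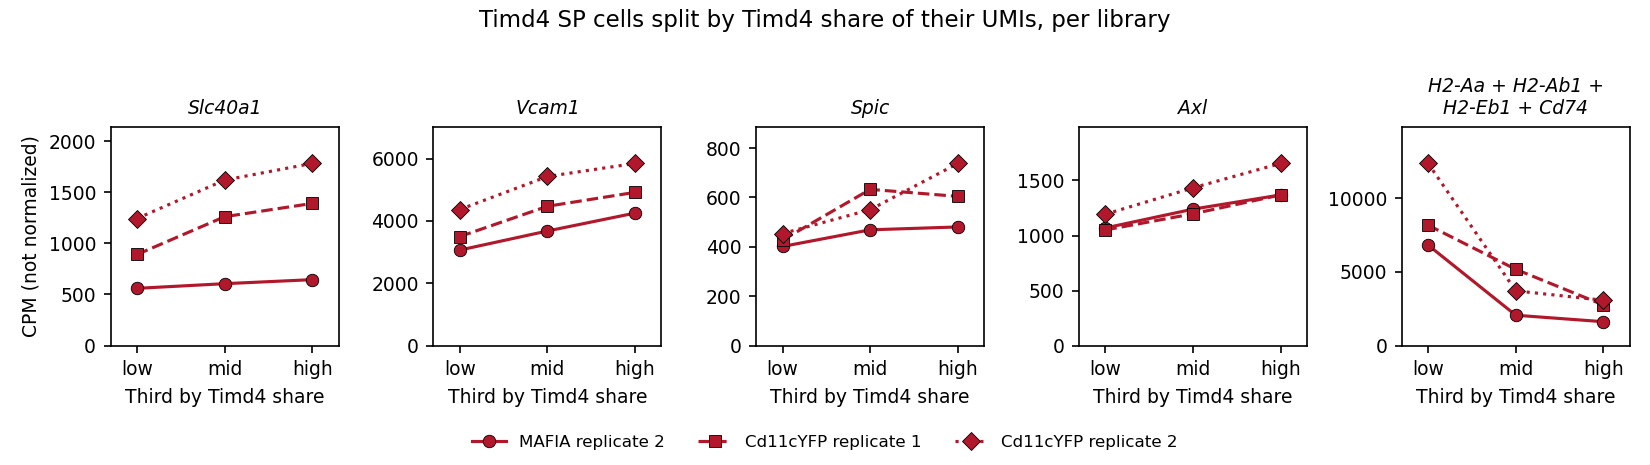
CPM (y axis, from 0) of Slc40a1, Vcam1, Spic, Axl and 4 summed MHC class II genes in Timd4 SP cells split into tertiles by their Timd4 share (x axis), 1 line per library. The first 4 are higher in the high tertile than in the low tertile of each library, and the class II sum falls in each library.

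Over single members thinned to 5000 UMIs (282, 186 and 107 cells), Timd4 had low Spearman correlations with Slc40a1 (0.08, 0.12 and 0.15), Spic (0.20, 0.04 and 0.08), Vcam1 (0.24, 0.23 and 0.14), Axl (0.11, 0.19 and 0.21) and Cd163 (-0.02, 0.05 and -0.07). Slc40a1 and Vcam1 gave 0.43, 0.58 and 0.43. Vcam1 and Axl gave 0.40, 0.40 and 0.49, Vcam1 and Itgad 0.34, 0.49 and 0.38, and Slc40a1 and Hpgd 0.35, 0.46 and 0.21. Vcam1 and Cd74 were inversely related in each library (-0.29, -0.38 and -0.48), and Timd4 and Cd74 only weakly so (-0.11, -0.14 and -0.17). The cells of a library share their mouse, depth and droplets, so these values describe the libraries and carry no p.

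Class II RNA was low in most members but high in a few. The sum of the 4 class II genes had medians of 6, 8 and 8 UMIs of 5000 per member against 137, 175 and 214 per Cx3cr1 SP cell. In members it ranged up to 231, 237 and 267. At or above the lower quartile of the Cx3cr1 SP cells of the same library (61, 85 and 111 UMIs) were 18 of 282, 11 of 186 and 5 of 107 members, or 6.38, 5.91 and 4.67%. These members were deeper, with medians of 29602, 21430 and 24788 UMIs against 17266, 14166 and 11712 in the rest. In CPM that was not TMM-normalized, they had less Vcam1 (1625, 1948 and 2126 CPM against 3838, 4461 and 5471) and less Spic (277, 262 and 226 against 465, 573 and 610). Timd4, which is part of the rule, was lower in them too, at 230, 302 and 171 CPM against 508, 492 and 566. Ccr7, which marks mature dendritic cells, stood at 36.7, 149 and 716 CPM in them against 6.2, 66.2 and 100.5, and Ccr2 at 292, 22.5 and 77.9 against 17, 15 and 0. Cd209a, another gene of dendritic cells, had no common direction, at 2.04, 0 and 62.3 CPM against 2.69, 1.87 and 0.779. Lyz2 (11220, 9307 and 1300 against 5113, 3490 and 3496) and Gpnmb (167, 216 and 0 against 9.93, 56.1 and 1.56) had none either. Both were higher in them in MAFIA replicate 2 and Cd11cYFP replicate 1 and lower in Cd11cYFP replicate 2. No doublet caller was run, and the part of mixed droplets in these cells was not tested.

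Markers of other cell types were looked up in the member sums. The 20 thymocyte markers summed to 593, 663 and 459 CPM (not TMM-normalized) in members, 466, 586 and 380 in Cx3cr1 SP and 811, 763 and 923 in DP. Of the 18 that were tested, 1 (Cd28) was higher in members and 0 were lower. After thinning, at least 1 thymocyte marker UMI was found in 84.4%, 78.5% and 71.0% of members, against 68.7%, 62.5% and 58.3% of Cx3cr1 SP, 86.7%, 83.9% and 81.2% of DP, and 55.7%, 34.7% and 39.0% of B cells. The members thus stood above Cx3cr1 SP and B cells and below DP in each library, and the part of thymocyte RNA in the results was not tested. The 9 markers of cDC1, a dendritic cell type, summed to 624, 608 and 719 CPM in members and 350, 367 and 348 in Cx3cr1 SP, with 3 of 8 tested higher (Clec9a, Cadm1 and Wdfy4) and 1 lower (Batf3). The 9 cDC2 markers summed to 1356, 1320 and 1326 CPM against 1139, 920 and 972, with 1 of 9 tested higher (Sirpa) and 4 lower. The 10 epithelial markers summed to 44.9, 52.8 and 48.9 CPM against 33.1, 24.4 and 27.7, with 2 of 5 tested higher (Krt8 and Ccl25). All 3 of these sums were above Cx3cr1 SP in each library, and their part in the results was not tested. Of 7 tested B cell markers, 2 were higher (Cd79b and Cd22) and 1 was lower (Ighm), and of 4 tested endothelial markers 2 were higher (Pecam1 and Cdh5) and 2 lower. Markers of mature dendritic cells summed to 292, 574 and 821 CPM in members and 435, 247 and 618 in Cx3cr1 SP, with no common order. Of 10 tested markers of plasmacytoid dendritic cells 1 was higher (Tcf4) and 2 were lower. Some of these small counts moved with 1 library left out: without Cd11cYFP replicate 1, 3 thymocyte markers and 1 epithelial marker were higher, without MAFIA replicate 2 3 markers of mature dendritic cells were higher, and without either Cd11cYFP library 1 marker of plasmacytoid dendritic cells was lower and 0 were higher. The 2 epithelial calls were both lost with thinned cells. Fibroblast markers summed to at most 3.45 CPM and neutrophil markers to at most 59.04 CPM. Of 12 tested monocyte markers 8 were lower and 2 higher (median -2.33). They summed to 1120, 609 and 310 CPM in members and 3398, 1879 and 1603 in Cx3cr1 SP, with 0, 3 and 4 of 13 markers at 0 in members. With cells that carry markers of other types left out, 1779 genes were higher and 2037 lower than in Cx3cr1 SP.

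Between the lines, the members of MAFIA replicate 2 differed from both Cd11cYFP libraries in genes of reporter and sex, in immediate early genes and in single genes such as Cxcl10 and Ifit1. The YFP reporter stood at 0, 1723 and 1010 CPM, and Xist at 996, 0 and 0. The immediate early gene Fos stood at 29.3, 1069 and 1117 CPM in members, and at 29.9, 1273 and 1432 in Cx3cr1 SP and 9.57, 339 and 412 in B cells of the same libraries. Dusp1, Fosb, Klf4 and Hspa1a had the same order, so this contrast was also seen in Cx3cr1 SP, monocytes and B cells. Cxcl10, an interferon-induced chemokine, stood at 1178, 298 and 277 CPM and Ifit1 at 233, 47.7 and 61.9. MAFIA replicate 2 was also highest in Cx3cr1 SP, with 964, 378 and 422 CPM of Cxcl10 and 205, 80.6 and 78.3 of Ifit1, and in monocytes, with 1935, 331 and 255 of Cxcl10 and 599, 98.1 and 155 of Ifit1. Ly6c2 (201, 19.4 and 2.53 CPM) and Plac8 (197, 27.4 and 20.2 CPM), genes of monocytes, were also highest in the MAFIA members. The MAFIA library was highest for both in Cx3cr1 SP too, with 285, 275 and 73.4 CPM of Ly6c2 and 216, 149 and 52.8 of Plac8. The same held in monocytes, which were gated on Ly6c2, with 4737, 2596 and 2268 of Ly6c2 and 4586, 1665 and 1761 of Plac8. In B cells the MAFIA library was lowest for both. With 1 MAFIA library these are descriptions, and line, sex, age and library cannot be told apart.

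A test of whether the difference between members and Cx3cr1 SP itself varied with the line called 9 of 11578 genes (0.0777%), with 3 residual degrees of freedom. The MAFIA arm is 1 library, taken to vary like the others, so a trait of that mouse or library and one of the line cannot be told apart. Ccl4, a chemokine of activated macrophages, stood at 126, 72.9 and 141 CPM in members and 44.9, 619 and 594 in Cx3cr1 SP. Its log2 fold change was larger in the MAFIA library by 4.08 ± 0.45 (SE), with an adjusted p of 0.015. The MAFIA library was low for Ccl4 in Cx3cr1 SP, and in members it lay between the Cd11cYFP libraries. For Tfrc the MAFIA members were high (377 CPM against 53.2 and 77.7), while Cx3cr1 SP stayed at 13.9, 7.93 and 14.3. Ccl4 passed in all 9 alternatives and Tfrc in 7.

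**Figure D5:**
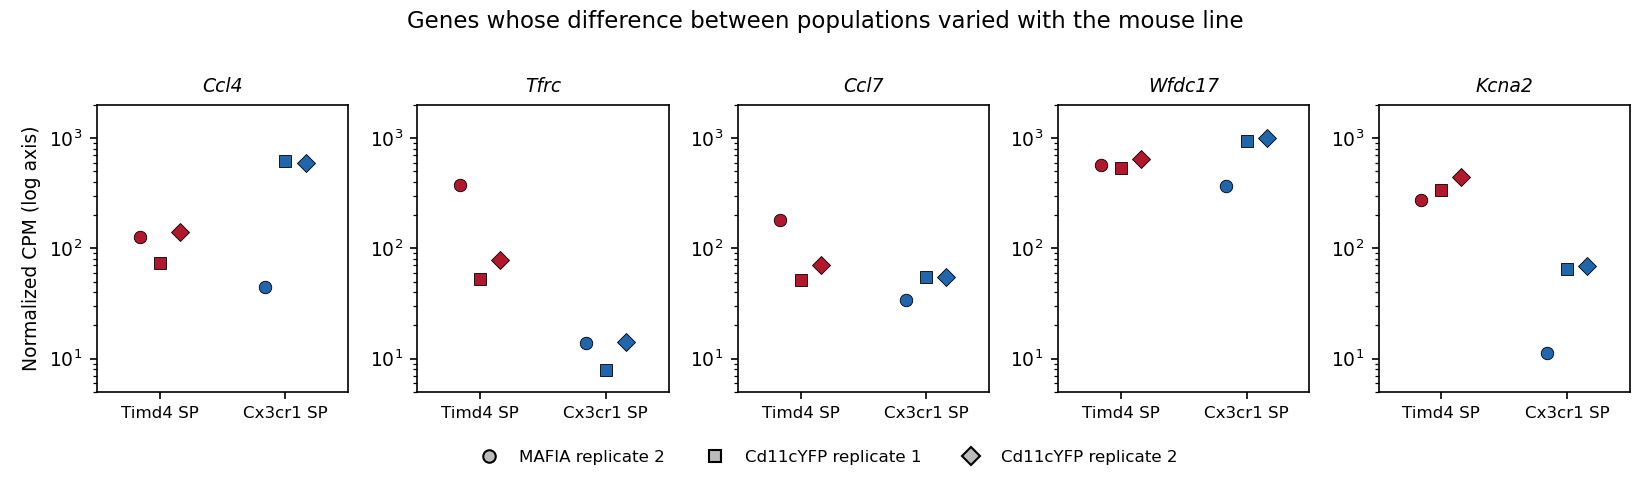
Normalized CPM (log axis) in Timd4 SP and Cx3cr1 SP of the 5 genes with the smallest p in the test of population by mouse line, 1 point per library. For Ccl4 and Kcna2 the MAFIA point stands apart in Cx3cr1 SP, and for Tfrc and Ccl7 it stands apart in Timd4 SP.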

How the data were processed

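The 4 libraries hold sorted EGFP+ (MAFIA) or YFP+ (Cd11cYFP) thymic cells. Each deposited matrix gives whole-number UMI counts, not normalized, for every gene in every barcode. The submitters' processing notes name bcl2fastq 2.20, STAR 2.7.9a, Cell Ranger and builds GRCm39 and mm39, whereas the study's methods name mm10; no coordinate was taken from the files. Libraries held 5500 to 9737 barcodes.

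Cells with 1000 to 7000 genes and at most 10% mitochondrial UMIs were kept, and members and comparators were gated on raw UMIs. The members and the gene lists were chosen with earlier results of these data known. Sums of at least 10 cells per library and population (12 sums, 1 fit) were tested in edgeR 4.0.16 on R 4.3.3 (filterByExpr, TMM, quasi-likelihood F test, library as block, residual degrees of freedom 6, 11578 genes). The block was used because 1 mouse gave all populations of its library; same-library deviations correlated at 0.15 to 0.64 between populations. Genes of the gate were described only. The SE of a log2 fold change was derived from the test, as its absolute value divided by the square root of the F statistic. The study tested cells, which are not replicates.

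The rule for named genes took the 10 strongest log2 fold changes each way in a comparison, provided the gene passed, moved alike in all libraries and had a mean of at least 50 CPM in the higher population. It added the 4 strongest of each list with at least 20 CPM, the markers, the genes the study names for these cells, the 10 largest differences each way between lines within members and the 5 smallest p of the test by line; other members of the lists were named after their values were seen. The code was tested on simulated data. Alternatives were DESeq2 1.42.0, RLE normalization, no low-count filter, no block, each library left out, other gate limits (Timd4 at least 4, C1q sum at least 100, 8000 to 25000 UMIs, 5% mitochondrial UMIs), cells with markers of other types left out, and thinning. List counts under the alternatives were added after the data were seen. No doublet caller was run. Promoters are those of RefSeq (GRCm38.p6), which matched Timd4, Spic and Mertk of the 5 markers. Python 3.11.15 was used for the rest.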

Additional observations from a re-analysis of the deposited data

Results flagged for a closer look

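The difference between Timd4 SP and Cx3cr1 SP macrophages was tested for variation with the mouse line, and 9 genes passed. The MAFIA arm is 1 library, so the line cannot be told apart from that mouse or library. The values are the log2 fold change in the MAFIA library minus that in the Cd11cYFP libraries, each ± SE. Chemokine genes made up 4 of them: Ccl4 (4.08 ± 0.45), Ccl3 (3.82 ± 0.52), Ccl7 (2.29 ± 0.30) and Ccl2 (1.82 ± 0.28). Ccl3 was, like Ccl4, lowest in the Cx3cr1 SP cells of the MAFIA library, with 40.4, 39.4 and 17 CPM in members and 24.2, 216 and 334 in Cx3cr1 SP. For Ccl7 and Ccl2 the MAFIA library was highest in members and lowest in Cx3cr1 SP, and in members Ccl7 stood at 179, 52 and 70.7 CPM and Ccl2 at 192, 111 and 91.6. The other positive genes were the transferrin receptor Tfrc (2.19 ± 0.25), Wfdc17 (1.35 ± 0.18), the potassium channel gene Kcna2 (2.05 ± 0.28) and the lectin Siglech (3.43 ± 0.45), a gene of plasmacytoid dendritic cells and microglia. H2-DMb2, a chaperone subunit of MHC class II loading, was negative (-2.08 ± 0.30). The adjusted p-values (edgeR) ranged from 0.015 for Ccl4 to 0.046 for Ccl2. Of the 9, only Ccl4 passed in every one of its 9 alternatives. With 8000 to 25000 UMIs 3 of the 9 were kept, and Ccl7 fell to 0.89 (adjusted p = 0.66), Ccl2 to 1.12 (0.17), Wfdc17 to 1.06 (0.27), Kcna2 to 1.58 (0.11) and Tfrc to 1.80 (0.054), while H2-DMb2 was -2.06 (0.08). With thinned cells Kcna2 (adjusted p = 0.31), Tfrc (0.061) and H2-DMb2 (0.9) lost their call. In cells without markers of other types, Siglech (0.79), H2-DMb2 (0.48) and Ccl3 (0.093) no longer passed, and with at least 4 Timd4 UMIs Ccl2 (0.061), Ccl7 (0.051), Wfdc17 (0.09), Siglech (0.086) and H2-DMb2 (0.19) did not. Ccl2 was also lost with RLE normalization (0.06). Immediate early genes were lower in all populations of the MAFIA library named in the report, and the part of this contrast in the chemokine values was not tested.

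In MAFIA replicate 1, the library outside the rule, 4 of 5493 cells met the terms of the gate, 0.0728% (95% exact binomial interval 0.0198 to 0.186). They were 4 of its 64 macrophages of the gate.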

How the results depend on the processing

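Of 2546 values of named genes under the alternatives, 2456 kept their direction and side of the threshold, 84 lost their call, 6 gained one and 0 reversed. Counts against Cx3cr1 SP moved by over 1.5 times from 4081 with thinned cells (2589) and without the replicate block (2575). With the block left out, 25 of 190 values of named genes lost their call. Against DP, 1518 fell to 768 with thinned cells, 672 without the replicate block and 756 to 930 with 1 library left out. The count against Cx3cr1 SP was 2823 to 3293 and that against monocytes 4939 to 5776 with 1 library left out. The 9 genes of the test by line became 17 with a C1q sum of at least 100, 17 with at most 5% mitochondrial UMIs, 5 with 8000 to 25000 UMIs (3 of them shared with the 9), 14 with thinned cells, 16 with DESeq2 and 140 without the low-count filter. The share of members was 1.77% to 3.48% of cells and 21.7% to 32.7% of macrophages of the gate with 1 library left out. The share of members with a UMI of Spic was 72.9% after thinning to 3000 UMIs and 96.3% without thinning, that of Itgad 46.1% and 78.5%, and that of Gpnmb 6.75% without thinning. Thinning removes UMIs and genes tested (9006 against Cx3cr1 SP); other causes were not tested. With 3 mice of 2 lines and few cells per sum, a gene that did not pass may still differ. The line test could not be run with a library left out.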

Other observations

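Among the most abundant RNAs of the members were genes not described in the report. Apoe, the apolipoprotein that carries cholesterol between cells, averaged 21827 ± 507 CPM (SD, n = 3 libraries) in members and 19825 ± 3446 in Cx3cr1 SP, and it did not pass the test between them. Selenop, the selenium carrier protein, averaged 4685 ± 619 CPM in members and 2403 ± 746 in Cx3cr1 SP (log2 fold change 1.01 ± 0.16 (SE), adjusted p = 0.00025, edgeR), 4312 in DP, 134 in monocytes and 24.4 in B cells. Grn (progranulin, a lysosomal protein) averaged 2135 ± 252 CPM in members and 1217 ± 135 in Cx3cr1 SP (log2 fold change 0.81 ± 0.12 (SE), adjusted p = 8.9e-05, edgeR).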
